A study of Homo sapiens with 4 samples.

Results

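The NRF2 summits around the ZMYND8 gene were taken from the summit lists of 4 ChIP-Seq libraries of MDA-MB-231 mammospheres. A summit belonged to the gene if it lay in the hg19 gene body of ZMYND8 (chr20:45837859-45985567) or within 100 kb of either end. This gave 32 of the 9717 summits of the 4 lists, which were 12 of 2030 in SC replicate 1 and 14 of 6816 in SC replicate 2. ZMYND8 KO replicate 1 gave 4 of 394 and ZMYND8 KO replicate 2 gave 2 of 477. MDA-MB-231 is a human breast cancer cell line, and mammospheres are spheres grown in suspension without attachment, which enriches for breast cancer stem cells. SC stands for the scrambled control, whose genotype the labels give as parental, and ZMYND8 KO for the knockout of ZMYND8 in the same line. All libraries were made with the same anti-NRF2 antibody. The part of ZMYND8 that was edited, and whether the KO is 1 clone or a pool, are not given in the sources used here. A summit list holds no measure of ZMYND8 RNA or protein, so the knockout could not be checked against its label.

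NRF2, the product of NFE2L2, is a basic leucine zipper transcription factor that pairs with small MAF proteins on the antioxidant response element (ARE). KEAP1 holds its level down by marking it for degradation, and oxidative stress releases it to switch on genes for glutathione synthesis, NADPH production and detoxification. ZMYND8 is a chromatin reader that binds acetylated and methylated histone tails through its PHD, bromo and PWWP domains and acts as a coactivator or corepressor. The study placed ZMYND8 upstream of NRF2 and also asked whether NRF2 acts on the ZMYND8 gene itself through an ARE at its promoter. The lists bear on a part of that question, namely where NRF2 peaks were called around the gene with and without ZMYND8, and say nothing of its transcription.

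ZMYND8 is read from the minus strand, so its start is at the high-coordinate end, 45985567, and upstream means higher coordinates. In the RefSeq order of genes (GRCh38.p14), EYA2, a phosphatase and transcriptional coactivator, follows the end of ZMYND8. The long noncoding RNA gene LINC01754 comes next on the upstream side, and NCOA3, a nuclear receptor coactivator, is the next protein-coding gene there. Whether a summit lies in LINC01754 was not determined, since only positions of another build were at hand. For the same reason the sequence under the summits is not shown. The promoter that RefSeq gives for the outer start of ZMYND8 is printed because it is the sequence nearest to the summits at the gene start that could be read. It runs from 250 bases before the start to 50 bases after it, on the minus strand at chr20:47356650-47356949 of GRCh38.p14.
ZMYND8 promoter: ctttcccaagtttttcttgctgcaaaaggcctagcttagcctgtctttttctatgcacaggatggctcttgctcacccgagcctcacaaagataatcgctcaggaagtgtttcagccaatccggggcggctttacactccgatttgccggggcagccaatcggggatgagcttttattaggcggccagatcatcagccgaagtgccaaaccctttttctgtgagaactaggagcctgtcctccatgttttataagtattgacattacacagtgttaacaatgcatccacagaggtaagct
The core letters of the ARE, TGACNNNGC on either strand, have 0 matches in it, as they do in the window of a second RefSeq start 263 bp inside the gene. Of all 35116 RefSeq promoter windows of this length, 13.3% hold such a match. The related AP-1 letters, TGACTCA or its reverse complement TGAGTCA, also have 0 matches in both windows, against 4.95% of all windows. A match could overlap both patterns, and the summits called nearest to the start lay farther upstream than these windows reach, so their own sequence was not searched and these counts say nothing of an ARE under them.

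Each summit came with a score. It was taken for the −log10 q-value of the peak because the lowest score of the 4 lists, 1.32, lay just above that of a q-value of 0.05. Scores depend on sequencing depth, which the lists do not give, so strength is described here mainly by the rank within a list, where 1 is the highest score. Summits of different lists were called shared when at most 200 bp apart, and chains of such neighbours were counted as 1 site. The 32 summits made 19 sites. Of these, 1 had a summit in all 4 libraries and 2 in both SC libraries and 1 ZMYND8 KO library. A further 4 had a summit in both SC libraries only, 2 in 1 SC and 1 ZMYND8 KO library, and 10 in 1 SC library only. No site at the gene (0 of 19) was called in ZMYND8 KO alone. Over the genome, 239 of 7708 sites had a summit in all 4 lists. Of the 1190 sites in both SC lists, 178 had a summit in 1 ZMYND8 KO list and 773 in none. An SC summit lay within 200 bp of 91.1% and 88.1% of all summits of ZMYND8 KO replicates 1 and 2. A missing summit means that no peak passed the calling threshold in that library, not that no NRF2 was bound.

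The sites lay in 3 groups, with 2 lone summits of SC replicate 2 apart from them. A group of 7 sites (14 summits) lay 32.8 to 36.5 kb upstream of the gene start. It carried the highest-scoring summit that each library had at this locus. A group of 6 sites (9 summits) surrounded the gene start, from 1.79 kb inside the gene to 3.82 kb upstream. A group of 4 sites (7 summits) lay inside the gene, 39.9 to 41.3 kb from its start. The lone summits were at 45999731, which is 14.2 kb upstream, with a score of 2.39, and at 45742964 beyond the gene end, 242.6 kb from the start, with a score of 1.49. They ranked 5935 and 6690 of 6816 and were found in no other list.

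**Figure D1:**
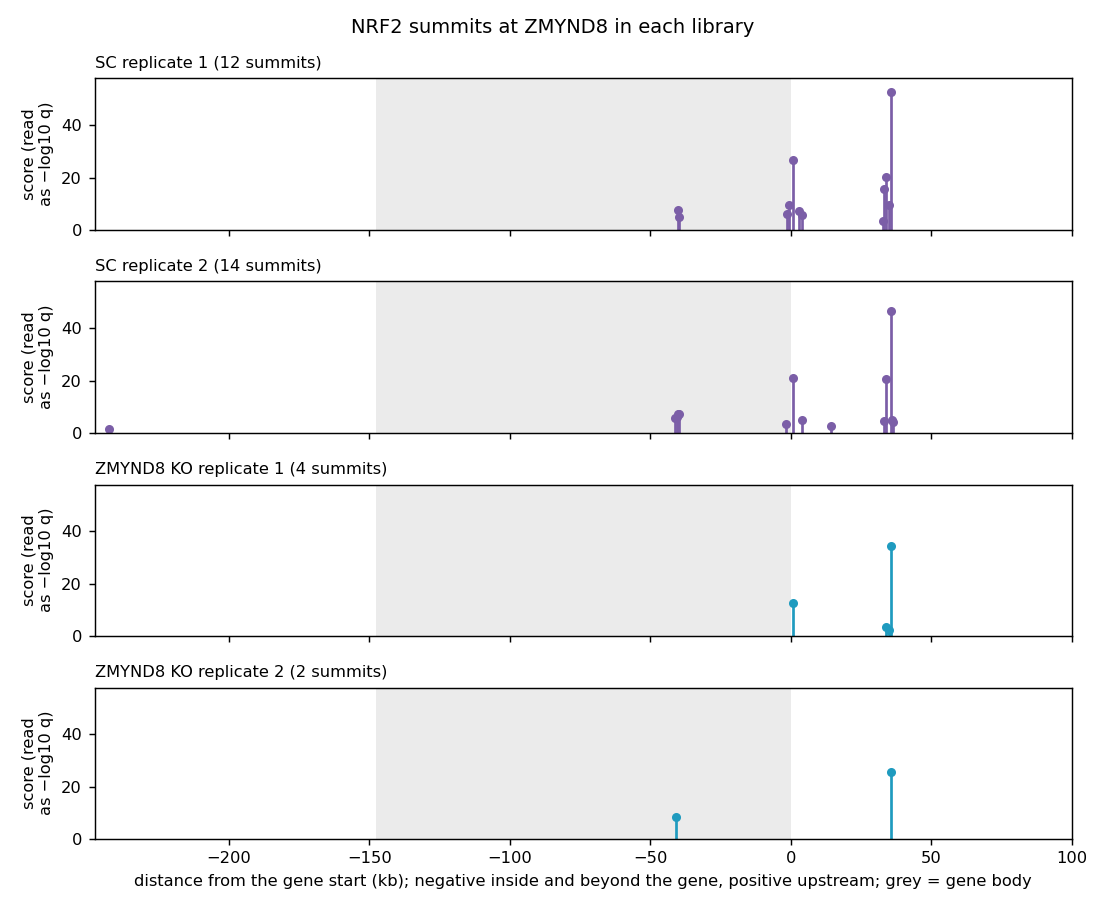
NRF2 summits at ZMYND8 in the 4 libraries, by distance from the gene start in kb (x axis, positive upstream, gene body in grey) and score, read as −log10 of the q-value (y axis). Each line with a circle is 1 summit, and the tallest in every library stands about 35.6 kb upstream, with a score of 52.7, 46.7, 34.4 and 25.5 from top to bottom.

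The strongest NRF2 site of the locus was upstream of the gene and not at its start. SC replicate 1 had its summit at 46021186 and SC replicate 2 at 46021133, while ZMYND8 KO replicate 1 had it at 46021135 and ZMYND8 KO replicate 2 at 46021148. The 4 summits spanned 53 bp and lay 35566 to 35619 bp upstream of the gene start. The site is the only 1 of the 19 that was called in every library.
Its score was 52.7 in SC replicate 1, 46.7 in SC replicate 2, and 34.4 and 25.5 in ZMYND8 KO replicates 1 and 2. Both SC scores were thus above both ZMYND8 KO scores, but 62.8% of the 239 sites called in all 4 lists showed the same, so this order was common. Its rank was 39 of 2030, 56 of 6816, 45 of 394 and 56 of 477 in the same order. Among the 239 sites of all 4 lists alone it ranked 34, 48, 36 and 50, so its place among common sites was much the same in SC and ZMYND8 KO, with the replicates of a group farther apart than the groups.

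Around this site lay the other summits of the upstream group, which ZMYND8 KO lists held in part. A site 33.9 kb upstream had a summit at 46019449 in SC replicate 1 and at 46019448 in SC replicate 2, 1 bp apart, with scores of 20.1 and 20.5 and ranks of 188 and 211. In ZMYND8 KO replicate 1 its summit was 101 bp from that of SC replicate 1, at 46019550, with a score of 3.39 that ranked 374 of 394. ZMYND8 KO replicate 2 had no summit there, its nearest being the strongest site itself, 1699 bp from the SC replicate 1 summit.
At 33.1 to 33.2 kb the SC lists had summits 152 bp apart, at 46018809 with a score of 15.6 (rank 266) in replicate 1 and at 46018657 with a score of 4.61 (rank 2316) in replicate 2. Neither ZMYND8 KO list had a summit within 200 bp of them. SC replicate 1 and ZMYND8 KO replicate 1 shared a site at 35.0 to 35.1 kb, with scores of 9.30 and 2.32 at positions 110 bp apart. The remaining 3 sites of the group were called in 1 SC library each, with scores of 3.50 to 5.04.

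The gene start had 1 strong site, which bears on the question of NRF2 at the ZMYND8 promoter. Its summit lay 613 bp upstream of the start in SC replicate 1 (45986180), 691 bp upstream in SC replicate 2 (45986258) and 673 bp upstream in ZMYND8 KO replicate 1 (45986240). ZMYND8 KO replicate 2 had none there, and its nearest summit was the strongest site, 34968 bp from the SC replicate 1 summit.
The score of this site was 26.6 in SC replicate 1, 20.9 in SC replicate 2 and 12.7 in ZMYND8 KO replicate 1. It ranked 123 of 2030, 202 of 6816 and 150 of 394, which is in the upper 6.06%, 2.96% and 38.1% of the lists. In each of the 3 libraries it ranked below the strongest site. In the SC lists it stood next to the site at 33.9 kb, ahead of it by 65 ranks in replicate 1 and by 9 ranks in replicate 2.
Around it were 5 weaker sites. At 3.82 kb upstream the SC lists had summits 7 bp apart, at 45989389 with a score of 5.59 and at 45989382 with a score of 5.04. The other 4 were called in 1 SC library each, with scores of 3.52 to 9.34, the highest of them at 45984800 in SC replicate 1, which is 767 bp inside the gene. Neither ZMYND8 KO list held any of these 5.

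**Figure D2:**
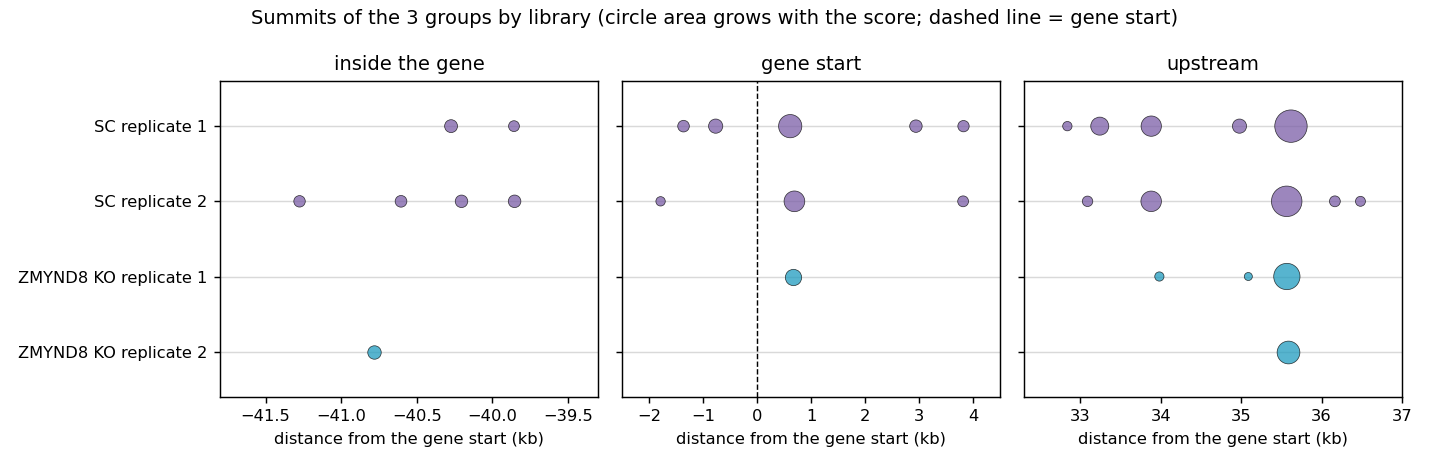
Summits of the groups inside the gene, at its start and upstream of it, by distance from the gene start in kb (x axis) and library (rows), with a circle area that grows with the score and a dashed line at the start. Only the site about 35.6 kb upstream has a circle in all 4 rows, and the strong site at the start, 613 to 691 bp upstream, has none in ZMYND8 KO replicate 2.

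The group inside the gene was weaker and its summits moved between lists. SC replicate 1 had 2 summits there, at 45945294 with a score of 7.54 and at 45945710 with a score of 5.05. SC replicate 2 had 4, with scores of 5.74 to 7.10, and its summits at 45945363 and 45945714 matched those of replicate 1 at distances of 69 and 4 bp. ZMYND8 KO replicate 1 had none. ZMYND8 KO replicate 2 had 1, at 45944783, with a score of 8.31 (rank 261 of 477), which lay 180 bp from a summit of SC replicate 2 and 511 bp from the nearest of SC replicate 1. It was the only summit of a ZMYND8 KO library inside the gene body, where SC libraries had 4 and 5.

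For the strongest part of the locus the ZMYND8 KO libraries differed in what was called. Both SC lists ranked 3 of its sites among their highest 300, namely those at the gene start and 33.9 and 35.6 kb upstream. ZMYND8 KO replicate 1 held all 3 and ZMYND8 KO replicate 2 held 1 of 3. Over the 214 sites of the genome that both SC lists ranked up to 300, ZMYND8 KO replicate 1 held 77.1% and ZMYND8 KO replicate 2 also held 77.1%. With 3 sites no difference from this background can be told.

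The share of ZMYND8 summits that recurred between SC libraries was close to that of the whole list in SC replicate 1 and above it in SC replicate 2, without a test. The median score at the gene was above that of the list for SC replicate 1 (8.42 against 6.16), SC replicate 2 (5.39 against 3.65) and ZMYND8 KO replicate 2 (16.9 against 8.69, from 2 summits), and below it for ZMYND8 KO replicate 1 (8.02 against 9.86). Among those of SC replicate 1, 7 of 12 (58.3%, Wilson 95% interval 32.0% to 80.7%) had a summit of SC replicate 2, against 58.7% of its whole list. In SC replicate 2, 7 of 14 (50%, 26.8% to 73.2%) had a summit of SC replicate 1, against 17.6%. Recurrence between SC lists was not matched for rank, and 11 of these 14 ranked in the upper 50% of their list. A summit of either ZMYND8 KO list lay at 4 of 12 in SC replicate 1 (33.3%, 13.8% to 60.9%), against 22.2%, and at 4 of 14 in SC replicate 2 (28.6%, 11.7% to 54.6%), against 7.0%. These intervals cover counting error only and take no account of neighbouring summits, which are not independent.
All 4 summits of ZMYND8 KO replicate 1 and both of replicate 2 had an SC summit, against 91.1% and 88.1% of their lists. The ZMYND8 KO lists shared 1 summit with each other, which is 1 of 4 and 1 of 2, against 68.8% and 56.8%. Of the 7 sites at the gene in both SC lists, 3 had a summit in at least 1 ZMYND8 KO list, against 35.0% of the 1190 such sites in the genome.
Recurrence with ZMYND8 KO is read here against rank. At ranks 1 to 100, a ZMYND8 KO summit lay near 97.0% of the summits of either SC list, and near the 1 summit that each had at the gene in that class. At ranks 101 to 300 these shares were 66.5% and 67.0% for SC replicates 1 and 2, and at the gene the counts were 2 of 3 and 2 of 2. Most SC summits at the gene ranked lower. In SC replicate 1 the share was 24.6% at ranks 301 to 1000, against 1 of 4 at the gene, and 4.67% beyond rank 1000, against 0 of 4. SC replicate 2 had no summit at the gene at ranks 301 to 1000, and beyond rank 1000 the share was 1.7%, against 1 of 11.

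**Figure D3:**
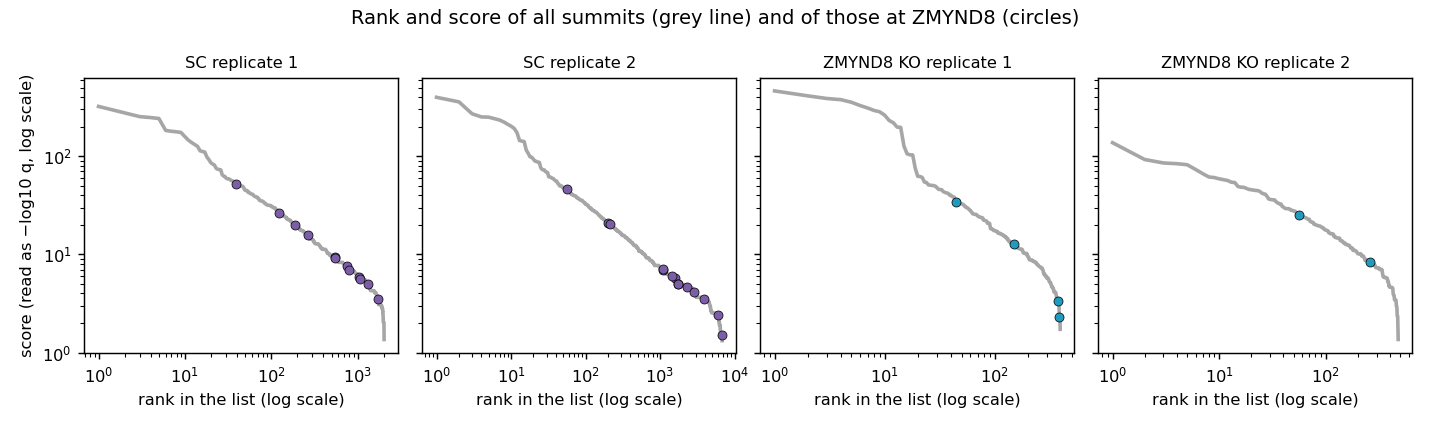
Score, read as −log10 of the q-value (y axis, log scale), against rank (x axis, log scale) for every summit of a list (grey line) and for the summits at ZMYND8 (circles), 1 panel per library. The highest circle sits at rank 39, 56, 45 and 56 from left to right, and 8 of 12 and 11 of 14 circles in the SC panels lie beyond rank 300.

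The number of NRF2 summits at ZMYND8 was lower in ZMYND8 KO than in SC, as was the number in the whole lists. SC libraries had 12 and 14 summits at the gene (13.0 ± 1.41, SD, n = 2) and ZMYND8 KO libraries 4 and 2 (3.0 ± 1.41, SD, n = 2). On average ZMYND8 KO thus had 0.231 times as many, and the groups did not overlap (exact permutation test over libraries, two-sided p = 0.33, the smallest p that 2 against 2 allows). The whole lists averaged 4423 summits in SC and 435.5 in ZMYND8 KO, a ratio of 0.0985, and did not overlap either. The ratio of means was thus higher at the gene than for the lists. The SC mean of the lists was set mostly by SC replicate 2, with 6816 summits against 2030 in SC replicate 1. As the shares below show, no direction of this difference can be given. In the upstream flank there were 8 and 8 against 4 and 1, and in the gene body 4 and 5 against 0 and 1. Nothing in the labels says that replicates came from separate cultures, so this spread may be technical.
Set against list length, the mean was higher in ZMYND8 KO, but the groups overlapped and the direction depended on the score threshold. Per 1000 summits of its list, SC replicate 1 had 5.91 at the gene (Wilson 95% interval 3.38 to 10.3) and SC replicate 2 had 2.05 (1.22 to 3.44). For the ZMYND8 KO libraries this was 10.2 (3.95 to 25.8) in replicate 1 and 4.19 (1.15 to 15.2) in replicate 2. These intervals, too, cover counting error only and treat neighbouring summits as independent, which they are not. The means were 3.98 ± 2.73 and 7.17 ± 4.21 (SD, n = 2 each) and the groups overlapped (exact permutation test, two-sided p = 0.67). The ratio of these means was 1.80. It was 0.849 with summits of a score of at least 5 alone, so no direction of the share can be given. Whether ZMYND8 KO libraries were sequenced less deeply, or gave weaker enrichment, was not tested.

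**Figure D4:**
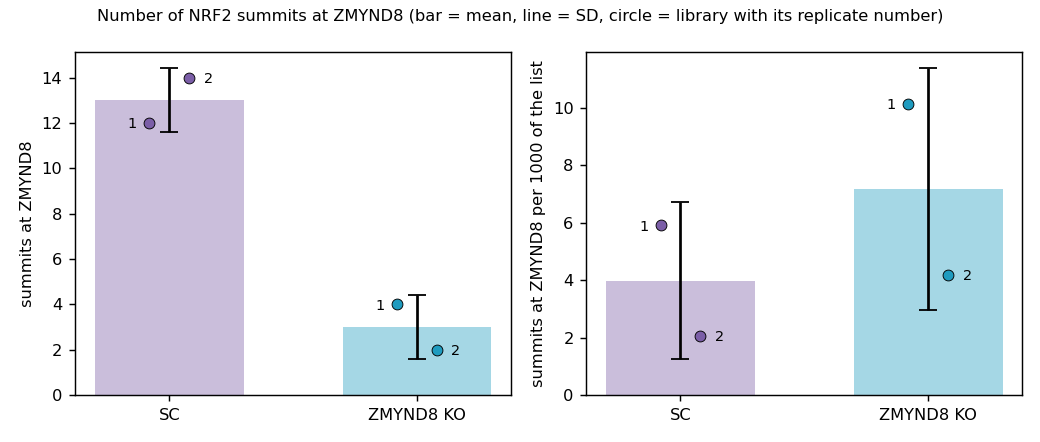
Number of summits at ZMYND8 (left) and the same per 1000 summits of the list (right) in SC and ZMYND8 KO, with the mean (bar), the SD of 2 libraries (line) and each library (circle with its replicate number). Counts of 12 and 14 stand against 4 and 2 on the left, while on the right the circles of the groups overlap.

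Every library held more summits at the locus than in most windows of equal length. In ZMYND8 KO replicate 2 these were only 2, with 1 inside the gene and 1 upstream of it. When all chromosomes were divided into 8556 windows of the same length, 348 kb, 0.0935% of them held at least the 12 summits that SC replicate 1 had at ZMYND8, and 0.304% held at least the 14 of SC replicate 2. In ZMYND8 KO replicate 1, 0.175% held at least 4, and in ZMYND8 KO replicate 2, 0.561% held at least 2. Windows with any summit made up 13.7%, 32.8%, 2.91% and 3.78% in the same order. On chromosome 20 the gene accounted for 12 of 82, 14 of 260, 4 of 15 and 2 of 16 summits. The window at the gene was centred on it and chosen with earlier results of these data known, so these shares describe its density and test nothing. The copy number of this region in the line was not measured here, and its part in the density was not tested.

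The positions rest on the lists being in hg19. The submitters' processing notes name hg19 and hg38 without saying which was used for the lists. Read as GRCh38, the same rule would give 1 summit in SC replicate 2, with a score of 2.63, and 0 in the other lists. Over all chromosomes 93 summits of the 4 lists would lie past the last RefSeq gene of GRCh38. Of these, 79 were in SC replicate 2 and 0 on chromosome 20. A position past the last gene can still lie on the chromosome, and no such count was made for hg19. This count therefore does not settle the build.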

How the data were processed

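The series holds NRF2 ChIP-Seq libraries of MDA-MB-231 mammospheres, 2 from SC and 2 from ZMYND8 KO. The authors deposited 1 list of MACS2 summits per library, made without pooling replicates, each with a position and a score. The deposited scores were read as −log10 q-values from their lowest value, which no file header states. The submitters' processing notes name FastQC 0.11.2, Bowtie2 2.2.3, Picard 1.127 and MACS2 2.0.10, and the builds hg19 and hg38. A control library is not given in the sources used here. Read counts and depth are unknown, so no precision from depth could be computed.

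Summits within 100 kb of the hg19 gene body of ZMYND8 were taken. Ranks, distances to the gene start and recurrence within 200 bp were computed in each list. Counts were compared by an exact permutation test over libraries (two-sided). ZMYND8 was the only gene named for results, and its neighbours were named for orientation. Alternatives were the flank, the score threshold, the 300 highest-scoring summits, merging within 500 bp, chromosomes 1 to 22 and X, other distances, each library left out, pairing by replicate number, and the GRCh38 gene body. The gene, window and tests were chosen with earlier results of these data known, and the 3 groups of sites (neighbours over 10 kb apart separated) after seeing the positions. Functions were tested on simulated data. Analyses ran in Python 3.11.15 with pandas 2.3.3, scipy 1.17.1 and numpy 2.4.6, and plots were drawn with matplotlib 3.10.9.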

Additional observations from a re-analysis of the deposited data

How the results depend on the processing

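The ratio of ZMYND8 KO to SC counts at the gene stayed below 1 under every alternative run, which the shorter ZMYND8 KO lists favour. It was 0.111 in the gene body alone. At a score of at least 10 it was 0.429 (4 and 3 of 473 and 617 SC summits against 2 and 1 of 196 and 213). With lists cut to equal length, their 300 highest scores, it was 0.571 (4 and 3 against 2 and 2). With the GRCh38 gene body it was 0, from 1 summit in all. Leaving out 1 library in turn it ran from 0.154 to 0.308. Paired by replicate number (replicate block), the ratios were 0.333 and 0.143, with a mean of 0.238 (two-sided p = 0.5 by exact permutation of signs, which cannot go lower with 2 pairs). The ratio of shares of the list reversed, to 0.775 in the gene body alone and 0.849 at a score of at least 5, and was 1.12 at a score of at least 10. Leaving out 1 library it ran from 1.05 to 3.49, with 1.05 without ZMYND8 KO replicate 1 and 3.49 without SC replicate 1. In the replicate block it was 1.88, from 1.72 and 2.04, with the same p of 0.5. No label ties a replicate number to a batch or day, and with 2 pairs this could not be checked.

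Recurrence moved with the distance. Over both SC lists, the share of summits with a ZMYND8 KO summit was 30.8% (8 of 26). It was 15.4% within 100 bp, 65.4% within 1000 bp, 57.1% at a score of at least 10 and 57.1% with the 300 highest-scoring summits. The share recurring in the other SC list was 53.8%, and 84.6%, 85.7% and 85.7% under the last 3 of these. The share of ZMYND8 KO summits with an SC summit fell from 100% to 50% within 100 bp. Leaving out 1 library, the first of these shares ran from 11.5%, without ZMYND8 KO replicate 1, to 33.3%, and the last from 83.3% to 100%. The share between SC lists needs both and is 53.8% without either ZMYND8 KO list by construction, which tests nothing. Whole-list shares were not computed for these distances and cutoffs, but whole-list recurrence with ZMYND8 KO was also highest at the top ranks. These changes can thus not be read as particular to the gene.

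In the gene body alone the best ranks were 546 in SC replicate 1, 1091 in SC replicate 2 and 261 in ZMYND8 KO replicate 2, and ZMYND8 KO replicate 1 had no summit. With flanks of 50 and 200 kb the best ranks were those of the 100 kb flank, 39, 56, 45 and 56. By score the same summit led in each list, and leaving out a library changes no rank in another, both by construction. The cause of these changes was not tested. Unknown depth limits every count.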
